A study of Mus musculus with 8 samples.

Results

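The genes described here mark the exit of mouse embryonic stem cells (mESCs) from the pluripotent state into the formative state and the first embryonic lineages. They were chosen by name, 10 genes of the 55291 in the count tables, and all 10 were present in all 8 libraries. By role they are Fgf5, Otx2 and Pou3f1 (formative state), Mixl1 and Eomes (mesendoderm), Gata4, Gata6 and Sox17 (endoderm), Sox1 (neural) and Cdx2 (trophectoderm and posterior body). RNA was sequenced from 2 edited mESC lines labelled as E14, in which DHX35 or GPATCH1 carries the dTAG degron, a tag through which the compound dTAG-13 directs the protein to degradation. DHX35 is an RNA helicase of the spliceosome, and GPATCH1 is a G-patch protein that works with it. DHX35-dTAG cells and GPATCH1-dTAG cells were each exposed for 4 h to DMSO, the solvent, or to dTAG-13 at 200 nM, with 2 libraries in each of the 4 groups. Every group therefore carried a degron, and an untagged parental line was not analysed here. The methods state that single colonies were picked after editing and that several clones were kept, but the labels name no clone for any library. The effect of the tagged gene, of the clone and of the line therefore cannot be told apart in any comparison between lines. Within a line, loss of the protein and any other effect of dTAG-13 cannot be told apart either. Depletion of DHX35 or GPATCH1 below names dTAG-13 against DMSO in that line. The labels give E14 as the cell line, whereas their text on growth names R1 cells, in serum medium with LIF and the inhibitors PD0325901 and CHIR99021. No label says that the libraries of a group came from separate cultures, so p-values measure the spread between these libraries only.

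In mouse pluripotent cells, a network that includes Pou5f1, Sox2, Nanog and Esrrb holds the naive state, and the inhibitors and LIF of the medium favour it. On leaving this state, cells lower the naive genes and raise Fgf5, Otx2 and Pou3f1, and only later raise genes that select a germ layer. Low transcript levels of lineage genes in cultured mESCs can reflect a few cells with much RNA or many cells with little, and bulk libraries cannot tell these apart. Likewise, fewer cells of a type and less RNA per cell cannot be told apart in any result below.

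Annotated starts of 5 of the 10 genes, 8 starts in all, were taken from the RefSeq promoter table used here (GRCm38.p6). Starts of the remaining genes were not analysed here. The 250 bases before the start are shown for Eomes, the member with the highest level in these libraries, and for Fgf5, one of the members with the fewest reads, because they come from near the opposite ends of the expression range. CG dinucleotides, in which many promoters are rich, are in capitals. Both sequences are written 5′ to 3′ on the plus strand. The Eomes stretch is chr9:118477939-118478188 and the Fgf5 stretch is chr5:98253934-98254183.
Eomes: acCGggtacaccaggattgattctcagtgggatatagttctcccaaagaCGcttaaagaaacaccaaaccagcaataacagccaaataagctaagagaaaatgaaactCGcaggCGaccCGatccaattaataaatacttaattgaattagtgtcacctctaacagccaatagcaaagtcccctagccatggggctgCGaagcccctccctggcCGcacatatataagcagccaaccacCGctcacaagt
Fgf5: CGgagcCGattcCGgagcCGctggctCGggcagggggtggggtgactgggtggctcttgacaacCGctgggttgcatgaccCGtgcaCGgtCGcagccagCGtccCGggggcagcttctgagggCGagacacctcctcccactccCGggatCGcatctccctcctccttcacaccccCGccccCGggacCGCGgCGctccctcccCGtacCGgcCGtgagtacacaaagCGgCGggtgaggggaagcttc
The stretch before Eomes held 8 CG dinucleotides, and 43.0% of the 32851 starts in the table held at least as many. The stretch before Fgf5 held 24, which 12% of all starts reached. The stretch before Sox1 held 29, the one before Cdx2 13, and those before the 4 starts of Otx2 held 6 to 14, against a median of 6 over all starts. By the GENCODE annotation, most of the Sox1 stretch lies within its exon, the end of the Cdx2 stretch lies within that gene and the Otx2 stretches lie within the span of Otx2, whereas the Eomes and Fgf5 stretches lie before their genes.

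Total counts lay between 12014203 and 14994173 per library. A count of 3 corresponded to between 0.186 and 0.265 CPM (counts relative to the library size, scaled by TMM), so levels in this range rest on very few reads. The 2 genes with the highest counts took between 1.27% and 20.9% of a library. One library, the first DMSO replicate of the DHX35-dTAG line, stood apart, with a mean correlation of 0.976 with the other libraries where those had 0.988 to 0.990, and the results that moved most without it are given with and without it. The 7 genes taken as stem cell markers (Pou5f1, Sox2, Nanog, Zfp42, Esrrb, Klf4 and Tfcp2l1) were abundant, at 110 CPM per kb of exon or more. The 8 fibroblast markers, which would mark feeder cells, summed to between 4.16 and 7.02 CPM, and Lum and Postn had no count in any library. The mRNAs of the targets were not lowered by dTAG-13, which acts on the proteins, with log2 fold changes of 0.11 for Dhx35 in DHX35-dTAG cells and 0.0024 for Gpatch1 in GPATCH1-dTAG cells. Between the lines, Gpatch1 mRNA differed by -1.75 on the log2 scale, with the lower level in GPATCH1-dTAG cells (SE 0.085, adjusted p = 3.6e-05, edgeR), and Dhx35 mRNA was lower there too, by -0.40 (SE 0.067, adjusted p = 0.041).

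The RNA levels of the lineage genes differed widely, from near the middle of the genes tested (Eomes) to near the bottom (Sox17). Per kb of annotated exon, Eomes was highest at 4.63 CPM, followed by Cdx2 at 2.36, Sox1 at 1.55 and Pou3f1 at 0.720. Otx2 (0.462), Mixl1 (0.437), Gata4 (0.376) and Gata6 (0.201) lay lower, and Fgf5 (0.109) and Sox17 (0.0575) were lowest. In this order, the first 3 steps, from Eomes to Cdx2, to Sox1 and to Pou3f1, separated genes whose ranges over libraries did not overlap. At each of the 6 steps below Pou3f1, the ranges of the neighbouring genes over the 8 libraries overlapped. Eomes lay near the middle of the genes tested, since 52.9% of them were lower per kb, and Cdx2 exceeded 39.0% and Sox1 31.2%. Otx2 exceeded 11.6% of tested genes, Gata6 4.0%, and Sox17 0.175%.

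All 10 were low beside the 7 stem cell markers. The level per kb of Klf4, the lowest of the 7 stem cell markers, was 23.8 times that of Eomes, and Pou5f1 was 76.5 times Eomes. Nanog was 541 times Otx2. The wider list of 13 naive and general pluripotency genes reached lower, with Prdm14 at 12.7 CPM per kb and Dppa3 at 0.699, which is under Eomes, Cdx2, Sox1 and Pou3f1. The genes listed with the formative state were not uniformly low, because Dnmt3b, a DNA methyltransferase raised in that state, was about 100.6 times Otx2 per kb. Utf1 and Dnmt3b were the most abundant of 12 further formative genes, and each of those 12 passed the expression filter, whereas Fgf5 did not.

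**Figure D1:**
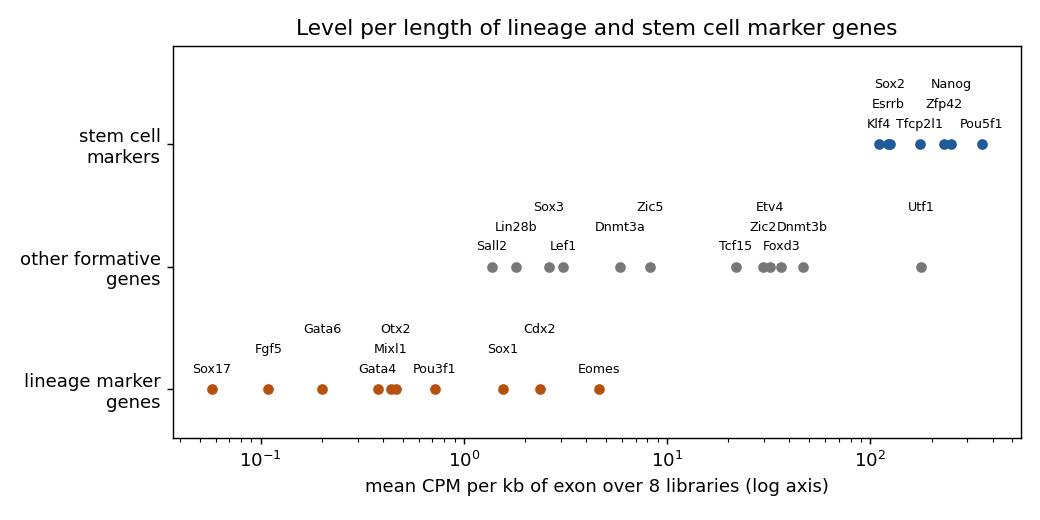
Mean CPM per kb of annotated exon over the 8 libraries, on a log axis, for the 10 lineage marker genes, 12 other genes linked to the formative state and 7 stem cell markers, with each point 1 gene. The lineage marker genes end at 4.63 CPM per kb (Eomes), below the lowest stem cell marker, Klf4, at 110.

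Among the formative genes, Fgf5, a growth factor of the epiblast (ENSMUSG00000029337.2, GRCm38 chr5:98254184-98277030, plus strand), had almost no reads. Its raw counts were 3 and 3 in DHX35-dTAG cells in DMSO, 3 and 4 in dTAG-13, 5 and 2 in GPATCH1-dTAG cells in DMSO, and 6 and 4 in dTAG-13. These 30 reads over 8 libraries gave levels of 0.177 to 0.372 CPM. At counts of 2 to 6, counting error alone is 40.8% to 70.7% of the value, and a difference between groups was not detectable at this depth. Otx2, a homeodomain factor of the epiblast and forebrain (ENSMUSG00000021848.16, chr14:48657677-48673819, minus strand), had 19 to 39 counts. In DHX35-dTAG cells its level was 1.70 and 1.61 CPM in DMSO and 2.22 and 3.45 in dTAG-13. In GPATCH1-dTAG cells it was 1.94 and 1.68 CPM in DMSO and 1.49 and 1.51 in dTAG-13. Both DHX35-dTAG libraries in dTAG-13 were above every other library, and the groups did not overlap within either line. Pou3f1, a POU-domain factor also called Oct6 (ENSMUSG00000090125.3, a gene of 1 exon, chr4:124656807-124660655, plus strand), had 26 to 47 counts. It was at 3.47 and 2.7 CPM in DMSO and 3.16 and 2.30 in dTAG-13 in DHX35-dTAG cells. In GPATCH1-dTAG cells it was at 2.46 and 3.27 in DMSO and 2.73 and 2.09 in dTAG-13, and the 4 groups overlapped.

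Of the mesendoderm genes, Eomes, a T-box factor (ENSMUSG00000032446.14, chr9:118478212-118486132, plus strand), carried 2090 of the reads on the 10 genes and was the best measured, with 211 to 338 counts per library. Its level was 19.9 and 15.2 CPM in DMSO and 18.0 and 21.0 in dTAG-13 in DHX35-dTAG cells. In GPATCH1-dTAG cells it was 21.9 and 19.8 in DMSO and 19.8 and 18.3 in dTAG-13. The 8 libraries had a mean of 19.2 ± 2.05 CPM (SD, n = 8), and neighbouring groups in the order of their means overlapped. Mixl1, a homeobox gene of the primitive streak (ENSMUSG00000026497.7, chr1:180693043-180697034, minus strand), had 7 to 23 counts. It was at 0.961 and 0.771 CPM in DMSO and 0.598 and 0.796 in dTAG-13 in DHX35-dTAG cells, and at 1.49 and 1.06 in DMSO and 1.05 and 1.30 in dTAG-13 in GPATCH1-dTAG cells. All 4 libraries of GPATCH1-dTAG cells lay above all 4 of DHX35-dTAG cells.

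Of the endoderm genes, the zinc finger factor Gata4 (ENSMUSG00000021944.15, chr14:63198922-63271692, minus strand) had 13 to 28 counts. Its level was 0.961 and 1.16 CPM in DMSO and 1.20 and 1.24 in dTAG-13 in DHX35-dTAG cells. In GPATCH1-dTAG cells it was 1.75 and 2.12 in DMSO and 1.30 and 2.02 in dTAG-13. Again every library of GPATCH1-dTAG cells was above every library of DHX35-dTAG cells. Gata6, which drives primitive endoderm (ENSMUSG00000005836.10, chr18:11052064-11085635, plus strand), had 13 to 29 counts. It was at 1.18 and 0.836 CPM in DMSO and 1.28 and 1.59 in dTAG-13 in DHX35-dTAG cells. In GPATCH1-dTAG cells it was at 0.906 and 1.15 in DMSO and 1.43 and 2.09 in dTAG-13. In both lines the dTAG-13 libraries lay above the DMSO libraries. Sox17, an HMG-box factor of definitive and primitive endoderm (ENSMUSG00000025902.13, chr1:4490931-4497354, minus strand), had counts of 4 and 3 in DMSO and 4 and 4 in dTAG-13 in DHX35-dTAG cells, and of 3 and 2 in DMSO and 8 and 2 in dTAG-13 in GPATCH1-dTAG cells. Like Fgf5 it was at the limit of detection, with its highest and its lowest level (0.496 and 0.144 CPM) in the same group.

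Sox1, an early neural HMG-box factor (ENSMUSG00000096014.1, a gene of 1 exon, chr8:12395295-12400126, plus strand), had 80 to 140 counts. Its level was 5.91 and 6.30 CPM in DMSO and 8.04 and 7.16 in dTAG-13 in DHX35-dTAG cells. In GPATCH1-dTAG cells it was 8.41 and 7.78 in DMSO and 8.67 and 7.63 in dTAG-13. The DMSO libraries of DHX35-dTAG cells were the lowest, and the other 3 groups overlapped. Cdx2, a caudal-type homeobox gene of trophectoderm and posterior body (ENSMUSG00000029646.3, chr5:147300805-147307270, minus strand), had 46 to 119 counts. It was at 7.09 and 4.37 CPM in DMSO and 4.10 and 4.07 in dTAG-13 in DHX35-dTAG cells, and at 4.92 and 5.66 in DMSO and 7.37 and 5.19 in dTAG-13 in GPATCH1-dTAG cells. The high value in the first of these groups belongs to replicate 1 in DMSO, the library that stood apart, and its partner was close to the dTAG-13 libraries.

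**Figure D2:**
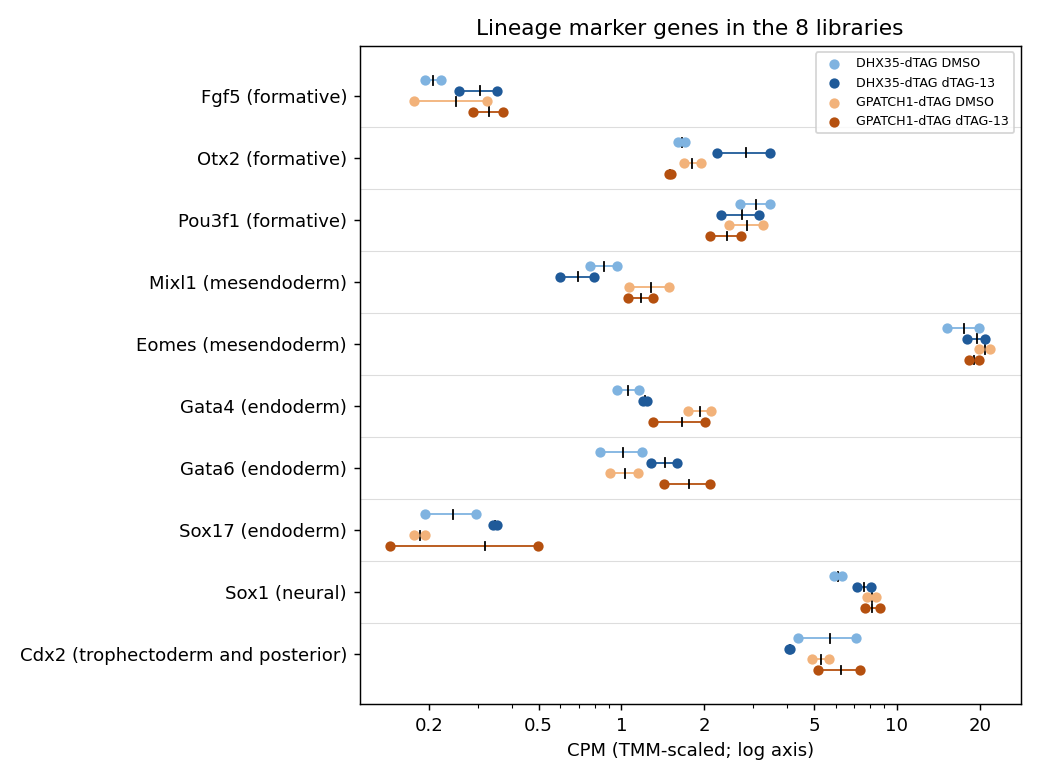
CPM (TMM-scaled, log axis) of the 10 genes in each library, coloured by group, with a black bar at the mean of the 2 libraries and a line joining them. Eomes lies between 15.2 and 21.9 CPM in all libraries, whereas Fgf5 and Sox17 stay below 0.5.

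The first comparison asked whether dTAG-13 for 4 h altered these genes in DHX35-dTAG cells. Of the 8 genes that passed the expression filter, none had an adjusted p under 0.05 by edgeR (quasi-likelihood, Benjamini-Hochberg over the 16371 genes tested), and neither had any other gene (0% of genes tested). Otx2 was higher in dTAG-13 with a log2 fold change of 0.77 (SE 0.28; 95% interval 0.13 to 1.42), but with an adjusted p of 0.71 by edgeR it did not pass the threshold. It was the one member with an unadjusted p under 0.05 (edgeR), a level reached by 5.39% of all genes tested, 882 genes. The value for Otx2 rested in part on replicate 2 in dTAG-13, and was 0.43 without that library and 0.81 without replicate 1 in DMSO. In replicate 2 in dTAG-13, the 2 most abundant genes took 20.2% of reads, and in replicate 1 in dTAG-13 they took 11.98%. In the DMSO libraries of this line they took 3.15% and 1.54%, so this share and the treatment cannot be told apart there. In replicate 2 of GPATCH1-dTAG cells in DMSO they took 20.9%, with Otx2 at 1.68 CPM. The log2 fold change in DHX35-dTAG cells was 0.77 when those 2 genes were left out before scaling, which does not separate the share from the treatment. The part of this share in the Otx2 value was not tested.

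Gata6 had a log2 fold change of 0.52 (SE 0.36), Sox1 of 0.31 (SE 0.16) and Gata4 of 0.19 (SE 0.36) on DHX35 depletion. Leaving out 1 library at a time moved Gata6 to between 0.29 and 0.77, with 0.77 without replicate 1 in DMSO and 0.29 without replicate 2. Gata4 moved to between 0.074 and 0.35, without the same libraries in turn. Sox1, between 0.23 and 0.40, moved less. All 3 genes had 95% intervals that include 0, and 5 of the 8 genes (Otx2, Gata4, Gata6, Sox1 and Cdx2) had groups that did not overlap, as did 28.7% of all genes tested with 2 libraries against 2. Eomes, the gene measured with most reads, had a log2 fold change of 0.15 (SE 0.15). Its interval runs from 0.877-fold to 1.41-fold, so changes beyond these bounds lie outside the interval. The value for Eomes was 0.36 without replicate 1 in DMSO and -0.020 without replicate 2. Pou3f1 had -0.17 (SE 0.28), which was 0.022 without replicate 1 in DMSO, and -0.42 without replicate 1 in dTAG-13. Mixl1 had -0.30 (SE 0.40), which was -0.11 without replicate 1 in dTAG-13 and -0.52 without replicate 2. Over the 8 genes, 5 log2 fold changes were positive and 3 negative, with a median of 0.17 against -0.0077 over all genes tested.

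Cdx2 depended most on the library that stood apart. Its log2 fold change was -0.48 (SE 0.28, adjusted p = 0.71, edgeR) with all libraries and -0.096 without replicate 1 in DMSO. Without replicate 2 in DMSO it was -0.79 with an adjusted p of 0.017 (edgeR). In that fit, where replicate 1 is the only DMSO library of the line and its spread is taken from the other groups, 4949 genes passed the threshold.

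On GPATCH1 depletion no member passed the adjusted threshold and none had an unadjusted p under 0.05, with 0% and 2.97% of all genes tested doing so (edgeR, 486 genes unadjusted). Gata6 came nearest, with a log2 fold change of 0.78 (SE 0.35; 95% interval -0.0047 to 1.56, unadjusted p = 0.051, adjusted p = 1.00, edgeR). It was 0.48 without replicate 2 in dTAG-13 and 1.03 without replicate 1. Otx2 was at -0.28 (SE 0.30), with an interval that includes 0. These 2 genes were the members whose groups did not overlap, as were those of 41.8% of all genes tested. The remaining 6 genes had intervals that include 0, with Cdx2 at 0.26 (SE 0.26), Sox1 at 0.0095 (SE 0.15), Eomes at -0.13 (SE 0.15), Mixl1 at -0.15 (SE 0.33), Gata4 at -0.22 (SE 0.30) and Pou3f1 at -0.23 (SE 0.28). The interval of Eomes runs from 0.724-fold to 1.15-fold and that of Sox1 from 0.796-fold to 1.27-fold. Over the 8 genes, 3 values were positive and 5 negative, with a median of -0.14 against 0.0029 over all genes. This split was not stable, because with 1 library left out Cdx2 (-0.021 to 0.48), Sox1 (-0.086 to 0.097), Mixl1 (-0.35 to 0.14) and Gata4 (-0.56 to 0.072) changed sign. Otx2 (-0.38 to -0.16), Eomes (-0.20 to -0.054) and Pou3f1 (-0.44 to -0.029) kept theirs over these ranges.

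The responses of the lines were compared directly by an interaction term. Otx2 had a difference of -1.05 on the log2 scale (GPATCH1-dTAG response minus DHX35-dTAG response, SE 0.41; 95% interval -1.99 to -0.12), with an unadjusted p of 0.031 and an adjusted p of 0.86 (edgeR). It was the one of 8 members with an unadjusted p under 0.05, where 3.91% of all genes had one, and 0% passed after adjustment. The difference for Otx2 kept its sign without each library in turn, between -1.34 and -0.71. Cdx2 had a difference of 0.74 (SE 0.38, adjusted p = 0.86, edgeR), which was 0.37 without the DHX35-dTAG DMSO replicate 1 and 1.06, with an adjusted p of 0.015, without replicate 2, a fit in which 3592 genes passed. Gata6 was higher after dTAG-13 in each line, and its difference between responses was 0.26 (SE 0.50); an effect across both lines was not tested.

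**Figure D3:**
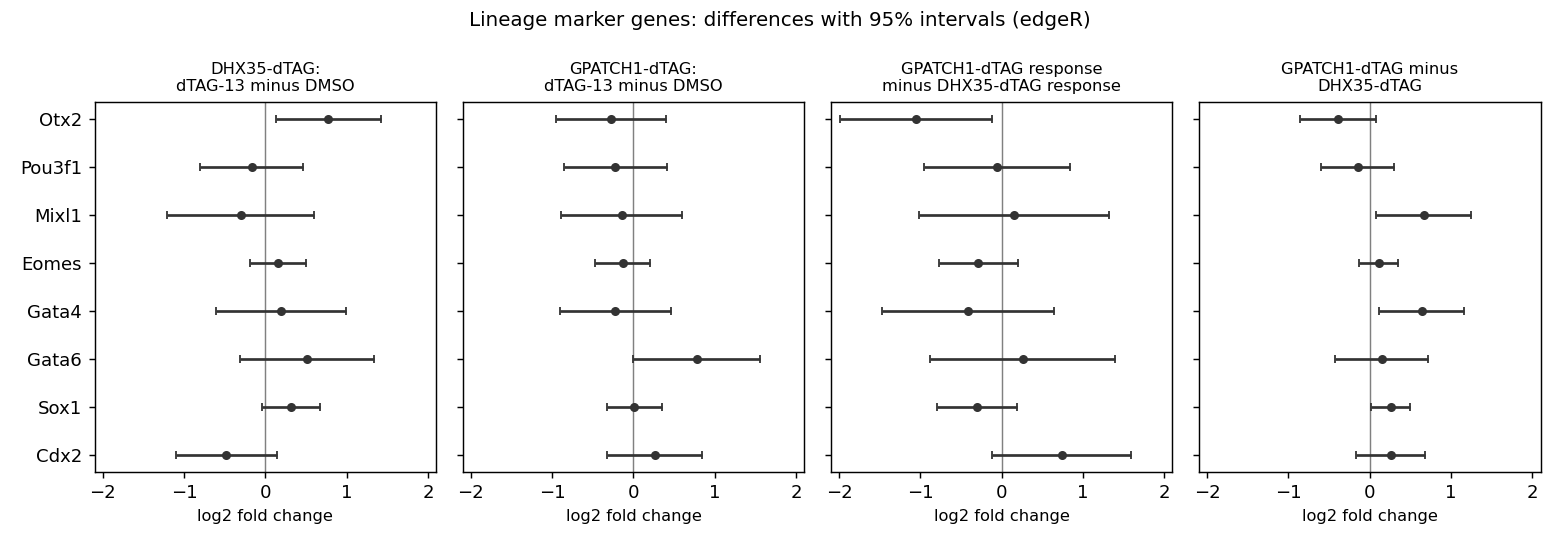
Log2 fold changes (points) of the 8 tested genes with 95% intervals (bars) from edgeR, in 4 panels for dTAG-13 against DMSO in DHX35-dTAG cells, the same in GPATCH1-dTAG cells, the difference between these responses, and GPATCH1-dTAG against DHX35-dTAG cells. Otx2 in DHX35-dTAG cells (0.13 to 1.42) and in the difference between responses (-1.99 to -0.12), and Mixl1, Gata4 and Sox1 between lines, have intervals that leave out 0, and none of the 8 passed the adjusted threshold.

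The lines were then compared over both treatments, 4 libraries against 4. No member passed the adjusted threshold, which 0.666% of genes tested (109 genes) did by edgeR. Gata4 was higher in GPATCH1-dTAG cells, with 1.80 ± 0.366 CPM (SD, n = 4) against 1.14 ± 0.123 (SD, n = 4). Its log2 difference was 0.64 (SE 0.23; 95% interval 0.11 to 1.16; unadjusted p = 0.022, adjusted p = 0.26, edgeR). Mixl1 was at 1.22 ± 0.209 CPM against 0.782 ± 0.148 (SD, n = 4 each), a log2 difference of 0.66 (SE 0.26; 95% interval 0.081 to 1.24; adjusted p = 0.28, edgeR). Sox1 was at 8.13 ± 0.498 CPM against 6.85 ± 0.946 (SD, n = 4 each), a log2 difference of 0.26 (SE 0.11, adjusted p = 0.32, edgeR). These 3 of 8 genes had an unadjusted p under 0.05, as did 15.1% of all genes tested (2464 genes), and Gata4 and Mixl1 were those whose lines did not overlap, where 11.6% of all genes did not.

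Within treatments, the differences of Gata4 and Mixl1 had the same sign. Gata4 differed by 0.85 among the 4 DMSO libraries and by 0.42 among the 4 dTAG-13 libraries, and Mixl1 by 0.58 and 0.74. Sox1 differed by 0.41 in DMSO and 0.10 in dTAG-13. With the DHX35-dTAG DMSO replicate 1 left out, the pooled values were 0.57 for Gata4, 0.75 for Mixl1 and 0.24 for Sox1, and 0.45 for Cdx2, 0.27 for Gata6, 0.22 for Eomes and -0.057 for Pou3f1, each of the last 4 moved by over 1.5 times. Otx2 (-0.39, SE 0.21) was 0.14 among the DMSO libraries and -0.91 among the dTAG-13 libraries, and Cdx2 (0.26, SE 0.19) was -0.11 and 0.63, so their sign differed between the treatments. Eomes (0.11, SE 0.11), Gata6 (0.15, SE 0.25) and Pou3f1 (-0.15, SE 0.20) had 95% intervals that include 0, and Eomes was -0.030 among the dTAG-13 libraries. With 1 library left out, Gata6 fell as low as 0.0082 (without the GPATCH1-dTAG dTAG-13 replicate 2), and Otx2 was -0.21 without the DHX35-dTAG dTAG-13 replicate 2. Without the DHX35-dTAG DMSO replicate 2, Cdx2 was 0.10 and Eomes 0.028. Pou3f1 was -0.018 without the DHX35-dTAG dTAG-13 replicate 1. In all, 6 of the 8 were higher and 2 lower in GPATCH1-dTAG cells, with a median of 0.20 against -0.0087 over all genes. Fgf5 and Sox17 could be fitted only without the expression filter, where their differences between lines were 0.24 (95% interval -0.96 to 1.44) and -0.20 (95% interval -1.41 to 1.01). In that fit, DHX35 depletion gave 0.55 (95% interval -1.23 to 2.32) for Fgf5 and 0.52 (-1.16 to 2.20) for Sox17, and GPATCH1 depletion gave 0.36 (-1.26 to 1.97) and 0.80 (-0.92 to 2.53). These intervals are the widest among the 10 genes.

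Further genes of the same lineages were read from lists that held no member. On depletion of DHX35 or of GPATCH1, no gene of these lists passed the adjusted threshold (edgeR). Between the lines, none of the tested members of the endoderm list (12 of 15 genes tested), the mesoderm list (6 of 12) or the neural list (5 of 12) passed the adjusted threshold. The most abundant genes of the lists were the laminin genes Lama1 at -0.058 and Lamb1 at 0.086, Nodal, a ligand of the epiblast, at 0.0098, the receptor gene Kdr at 0.13, the tubulin gene Tubb3 at 0.027 and the HMG-box gene Sox21 at -0.51 (SE 0.098, adjusted p = 0.065, edgeR), whose lines did not overlap. Less abundant genes also had differences that did not pass. In the endoderm list Dab2, an endocytic adaptor gene, was at 0.74 (SE 0.24, adjusted p = 0.22, edgeR) and the collagen gene Col4a1 at 0.35 (SE 0.11, adjusted p = 0.20, edgeR). These were the 2 genes of that list with an unadjusted p under 0.05, where 15.1% of all genes had one, and the list held 3 genes of 12 tested whose lines did not overlap, where 11.6% of all genes did not. In the neural list, the POU-domain gene Pou3f2 was at 0.85 (SE 0.37, adjusted p = 0.33, edgeR). The medians were 0.060 for the endoderm list, -0.16 for the mesoderm list and 0.024 for the neural list.

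Of the trophectoderm and posterior list, to which Cdx2 relates, 6 of the 8 genes tested had higher and 2 lower values in GPATCH1-dTAG cells, and 2 passed the threshold, both higher (0.666% of all genes tested passed in either direction). Gata3, a trophectoderm factor, ranged from 2.96 to 4.62 CPM in DHX35-dTAG cells and from 7.25 to 8.37 in GPATCH1-dTAG cells, a log2 difference of 1.04 (SE 0.16, adjusted p = 0.032, edgeR). Krt18, an epithelial keratin, ranged from 6.94 to 12.3 CPM and from 15.3 to 16.4, a difference of 0.91 (SE 0.16, adjusted p = 0.048, edgeR). The keratin gene Krt8 was at 0.62 (adjusted p = 0.066, edgeR), Cdx1 at 0.16 and Tead4 at -0.094. Tfap2c, a trophectoderm and germ cell factor, had the opposite sign at -0.36 (SE 0.086, adjusted p = 0.12, edgeR), with lines that did not overlap.

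Of 12 further formative genes, 9 were lower in GPATCH1-dTAG cells, with a median of -0.23. Of the 12, 2 passed the threshold, both lower, and 8 had an unadjusted p under 0.05, where 0.666% and 15.1% of all genes tested did so in either direction. Lef1, a transcription factor of the Wnt pathway, had the opposite sign at 0.39 (SE 0.077, adjusted p = 0.071, edgeR), with lines that did not overlap. Utf1, a chromatin-bound factor of pluripotent cells, ranged from 218 to 289 CPM in DHX35-dTAG cells and from 179 to 185 in GPATCH1-dTAG cells (log2 difference -0.49, SE 0.087, adjusted p = 0.049, edgeR). Zic2, a zinc finger factor, ranged from 90.6 to 103 CPM and from 73.7 to 77.1 (-0.33, SE 0.058, adjusted p = 0.048, edgeR). Of the 13 naive and general pluripotency genes, 10 were lower with a median of -0.13, and Nr0b1, which encodes the nuclear receptor Dax1, passed at -0.68 (SE 0.087, adjusted p = 0.013, edgeR). Of the 13, 6 had an unadjusted p under 0.05 (15.1% of all genes tested did). Klf4, a zinc finger factor of the naive network, had the opposite sign at 0.23 (adjusted p = 0.25, edgeR), with lines that did not overlap. Tfcp2l1 (0.044) and Pou5f1 (-0.24, adjusted p = 0.30, edgeR) did not pass. Of the 8 fibroblast markers, 3 were tested and none passed, with Thy1 at -0.63 (adjusted p = 0.25, edgeR) and Fbln2 at 0.035. The calls of Gata3, Krt18, Utf1, Zic2 and Nr0b1 held with the DHX35-dTAG DMSO replicate 1 left out, a fit in which 902 genes passed against 109 with all libraries. Each was lost without any 1 of the 6 libraries outside that group, with adjusted p-values between 0.10 and 0.35 (edgeR), and among the 4 DMSO libraries alone (adjusted p = 0.68 for each, edgeR). Of 17 alternative fits, the call was lost in 7 for Gata3 and for Nr0b1, in 8 for Krt18 and for Zic2 and in 10 for Utf1, with differences of the same sign in all.

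**Figure D4:**
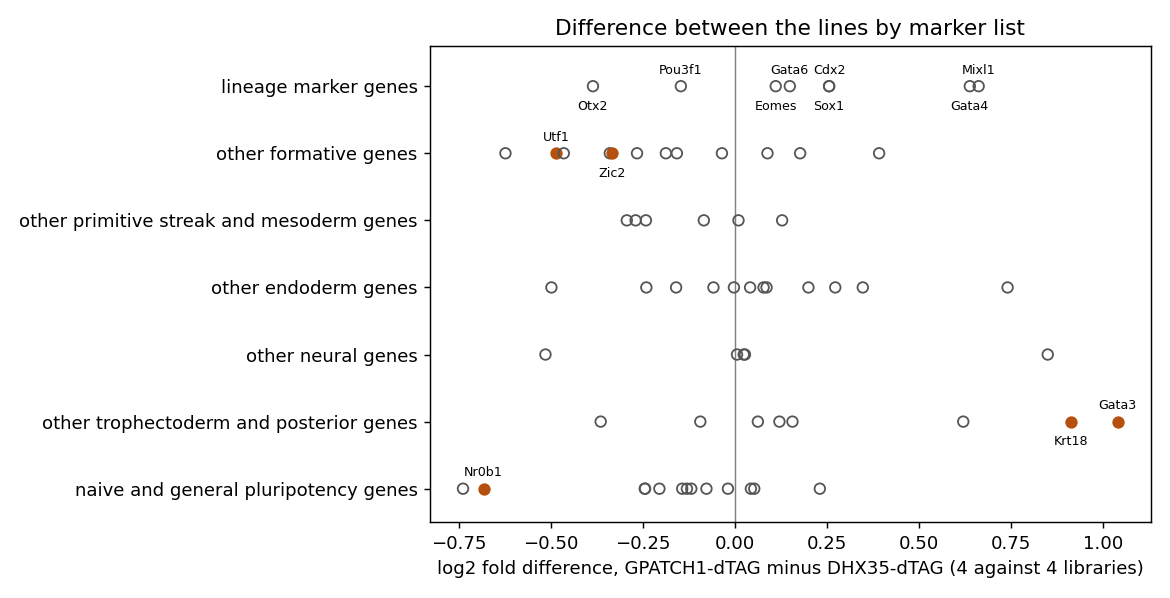
Log2 difference between GPATCH1-dTAG and DHX35-dTAG cells (4 libraries against 4) for the 8 tested lineage marker genes and for 6 lists of related genes, 1 point a gene. Filled points have an adjusted p under 0.05 (edgeR). They are Gata3 (1.04), Krt18 (0.91), Zic2 (-0.33), Utf1 (-0.49) and Nr0b1 (-0.68), and none is a lineage marker gene of the top line.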

How the data were processed

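Ribosomal RNA was removed, human DLD-1 RNA was added as a spike-in, and stranded libraries were made. The submitters' processing notes name FastQC 0.11.9, Trim Galore 0.6.6, STAR 2.7.5c, DESeq2 1.26.0 and the builds mm10 and hg19. For each library, the authors deposited a table of raw counts, not normalized, for 55291 genes; the counting program, annotation and strand setting are not given in the sources used here, so reads of overlapping and antisense genes cannot be told apart. Spike-in reads were not used here, so all levels are relative to the total.

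Groups came from the sample labels. The test was edgeR 4.0.16 under R 4.3.3 (TMM, filterByExpr on the 4 groups, glmQLFit and glmQLFTest, 1 term per group, Benjamini-Hochberg adjustment over 16371 genes, threshold 0.05) with all 8 libraries in the fit. SEs were computed as the absolute log2 fold change over the root of F. Lengths and positions came from GENCODE M21 (GRCm38, the same assembly as mm10), in which all 10 genes and 15986 of the 16371 tested genes had 1 entry; promoter sequences came from RefSeq (GRCm38.p6). The scripts were tested on simulated data.

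The genes, the lists and the tests were chosen with earlier results of these data known. Named were the 10 genes, both targets, every list gene past the threshold or else the 2 most abundant, genes overlapping a member, and the 2 genes most like each member in pattern. Krt8, Tfap2c, Dab2, Col4a1, Pou3f2, Lef1, Prdm14, Dppa3, Cdx1, Tead4, Lum, Postn and the other stem cell markers were named in addition, after their values were seen. Replicates of a group were not duplicates, with a chi-square per gene of 4.93 to 121. Alternatives were DESeq2 1.42.0, its size factors, no filter, a minimum of 10 counts per library, a robust prior, leaving out the 2 most abundant genes, a replicate block, fits of 4 libraries only and each library left out.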

Additional observations from a re-analysis of the deposited data

How the results depend on the processing

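With 2 libraries a group and 13 to 39 counts for Otx2, Gata4 and Gata6, counting error alone was between 16.0% and 27.7% per library. For Mixl1, with 7 to 23 counts, it was between 20.9% and 37.8%. Counting error thus limits these genes more than Eomes (5.44% to 6.88%). With all 8 libraries in the fit, no member was called under any other test, scaling or filter tried, nor in the fits of 4 libraries. Leaving out 1 library at a time gave 0 to 1 members called on DHX35 depletion and 0 to 1 in the difference between the responses (Cdx2 in both, when the DHX35-dTAG DMSO replicate 2 was left out). On the plain library total, the mean level of each of the 10 genes over the 8 libraries moved by less than the SD between libraries, although single libraries moved by more (Eomes from 19.8 to 16.8 CPM in replicate 2 of GPATCH1-dTAG cells in DMSO), and no scaling moved the median of all genes by over 0.1.

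Counts over all genes moved more. On DHX35 depletion, 1 gene passed with DESeq2, 345 without the filter, 1 with only the 4 DHX35-dTAG libraries, and 0 to 4949 with 1 library left out. On GPATCH1 depletion, 21 passed without the filter, 127 with only the 4 GPATCH1-dTAG libraries, and 0 to 51 with 1 library left out. Between lines, 890 passed without the filter, 2 with only the 4 DMSO libraries, 342 with only the 4 dTAG-13 libraries, and 16 to 5149 with 1 library left out. In the difference between the responses, 9 passed with DESeq2, 140 without the filter and 0 to 3592 with 1 library left out. The replicate block gave 2 genes there and moved no other count by over 1.5 times. Libraries with the same number had correlations of their deviations between 0.037 and 0.23, not all of them over 0.1, and the labels name no shared culture or day, so the numbers were not taken to pair the libraries; whether some share a batch was not tested. The cause of these shifts was not tested.

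Between lines, Otx2 was 0.14 and Cdx2 -0.11 with only the DMSO libraries, and Eomes -0.030 with only the dTAG-13 libraries. With 1 library left out, the log2 fold change changed sign on DHX35 depletion for Pou3f1 (-0.42 to 0.045) and Eomes (-0.020 to 0.36). It did so on GPATCH1 depletion for Mixl1 (-0.35 to 0.14), Gata4 (-0.56 to 0.072), Sox1 (-0.086 to 0.097) and Cdx2 (-0.021 to 0.48), and in the difference between the responses for Pou3f1 (-0.28 to 0.19), Mixl1 (-0.049 to 0.44) and Gata6 (-0.036 to 0.51).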

Other observations

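For each member with a mean of at least 1 CPM, the genes whose log2 CPM followed it most closely over the 8 libraries were read from all tested genes of that level. They were Mrpl54 (r = 0.95) and Mxd1 (0.93) for Otx2, Cdk5r1 (0.97) and Col9a3 (0.97) for Pou3f1, and Snhg4 and Mrs2 (both 0.96) for Mixl1. Hoxb6 and 5730507C01Rik (both 0.88) followed Eomes, Peg3 (0.98) and Fut8 (0.97) followed Gata4, and Msmo1 (0.94) and BC005624 (0.93) followed Gata6. For Sox1 they were C77080 and Gorasp2 (both 0.97), and for Cdx2 they were Tapbp (0.99) and Arpc4 (0.98). No other member was among them. These are the highest of many correlations over 8 libraries that share depth and line, and they are given as a description.

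Of the 8 genes annotated over members, 7 were found in the tables, and 1010001N08Rik, over Gata6, was not analysed here. Over all 8 libraries, Gm33460, antisense to Eomes, had 28 counts against 2090 for Eomes, and Gm2164, antisense to Pou3f1, had 12 against 300. Otx2os1 and Gm49154 at Otx2 had 1 count each against 207, and Gm37587 at Sox17 and Gm25239 at Sox1 had 0. Sox1ot, which spans Sox1 without sharing its exon, had 71 counts against 817.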
